A study of Mus musculus with 12 samples.

Results

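The genes described here carry, load, and take up lipid in brain tissue. They are 9 genes, Apoe, Clu, Apod, Lcat, Abca1, Abca7, Abcg1, Lrp1, and Sorl1, chosen by symbol through the accession of each array probe. They are read by 10 probes, 2 for Apod and 1 for each of the others, out of 39429 probes and 20886 named genes on the array. RNA was hybridized to one-colour mouse arrays, 1 array for each of 12 models, and each array held the pooled RNA of 3 mice. There is therefore no replicate of any model, and no spread between animals can be given. The first set of arrays was the prefrontal cortex of C57BL/6 mice aged 1.5, 4, 17, and 22 months. The second set was the hippocampus of transgenic mice labelled C57BL/6 (the methods name C57BL/6N as the background strain of the NCSTN and 5×FAD mice): mice with a mutated human NCSTN transgene at 10 months, mice with wild-type human MAPT at 12 months, and 5×FAD mice, which carry mutated human APP, at 6 months. In 5×FAD mice the Thy1 promoter drives transgene expression in neurons, whereas the promoters of the NCSTN and MAPT transgenes are not given in the sources used here. The third set was the hippocampus of ICR mice injected at 7 weeks of age. Aβ was given in the ventricle at 5 or 10 μM and streptozotocin in the ventricle at 2.5 or 3 mg/kg, both with tissue taken 14 days later. Tissue was taken 30 min after scopolamine (1 mg/kg) in the peritoneum, so the scopolamine mice were younger when sampled. Mice were fasted overnight and anaesthetized with isoflurane. No untreated, vehicle, or nontransgenic control array was used here. Each array was compared instead with the others of its own set. Within the transgenic set, model and age cannot be told apart.

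Lipid moves between brain cells on particles that are made mostly by glia. Transporters of the ABC family load cholesterol and phospholipid onto apolipoproteins, LCAT esterifies the cholesterol on the particle, and lipoprotein receptors take the particle up into neurons and other cells. Apoe, Clu, Abca1, Abca7, and Sorl1 are mouse homologs of genes in which human variants alter the risk of Alzheimer's disease, and Sorl1 and Lrp1 also handle the amyloid precursor protein and its fragments.

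Some arrays went against the description of their animals. The methods describe the mice as male, but Xist, the RNA that silences an X chromosome in females, was well above background on the 3 transgenic arrays and on none of the other 9. The Y-linked genes Ddx3y, Eif2s3y, and Uty were well above background on those 9 arrays and on none of the 3 transgenic arrays. Sex therefore cannot be told apart from the transgenic set in any comparison between sets, while the arrays within each set were alike in these genes. Of 6 cortex markers, 4 were lower on all 8 hippocampus arrays than on all cortex arrays and 1 (Tshz2) was higher. Of 5 hippocampus markers, 3 were higher on all 8 hippocampus arrays and none was lower, but only 2 of the 5 were well above background on every array. Between 63.5% and 75.9% of probes were well above background, the highest share being that of the 5×FAD array, and no spot was saturated. Among 399 probes printed in 10 or more spots, the median SD between spots of one array was 0.0573 to 0.0728 on the log2 scale. This is the error of a spot and not of an animal.

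Levels below are log2 of the processed signal after quantile normalization over the 12 arrays, and a difference of 1 on this scale is 2-fold. All 9 genes passed the filter on dim probes, and 9 of the 10 probes were well above background on all 12 arrays. The exception was 1 of the 2 Apod probes. Signals of different probes are not compared with each other here, because probes differ in how strongly they bind. In pooled tissue, fewer cells of a type and less RNA per cell cannot be told apart.

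**Figure D1:**
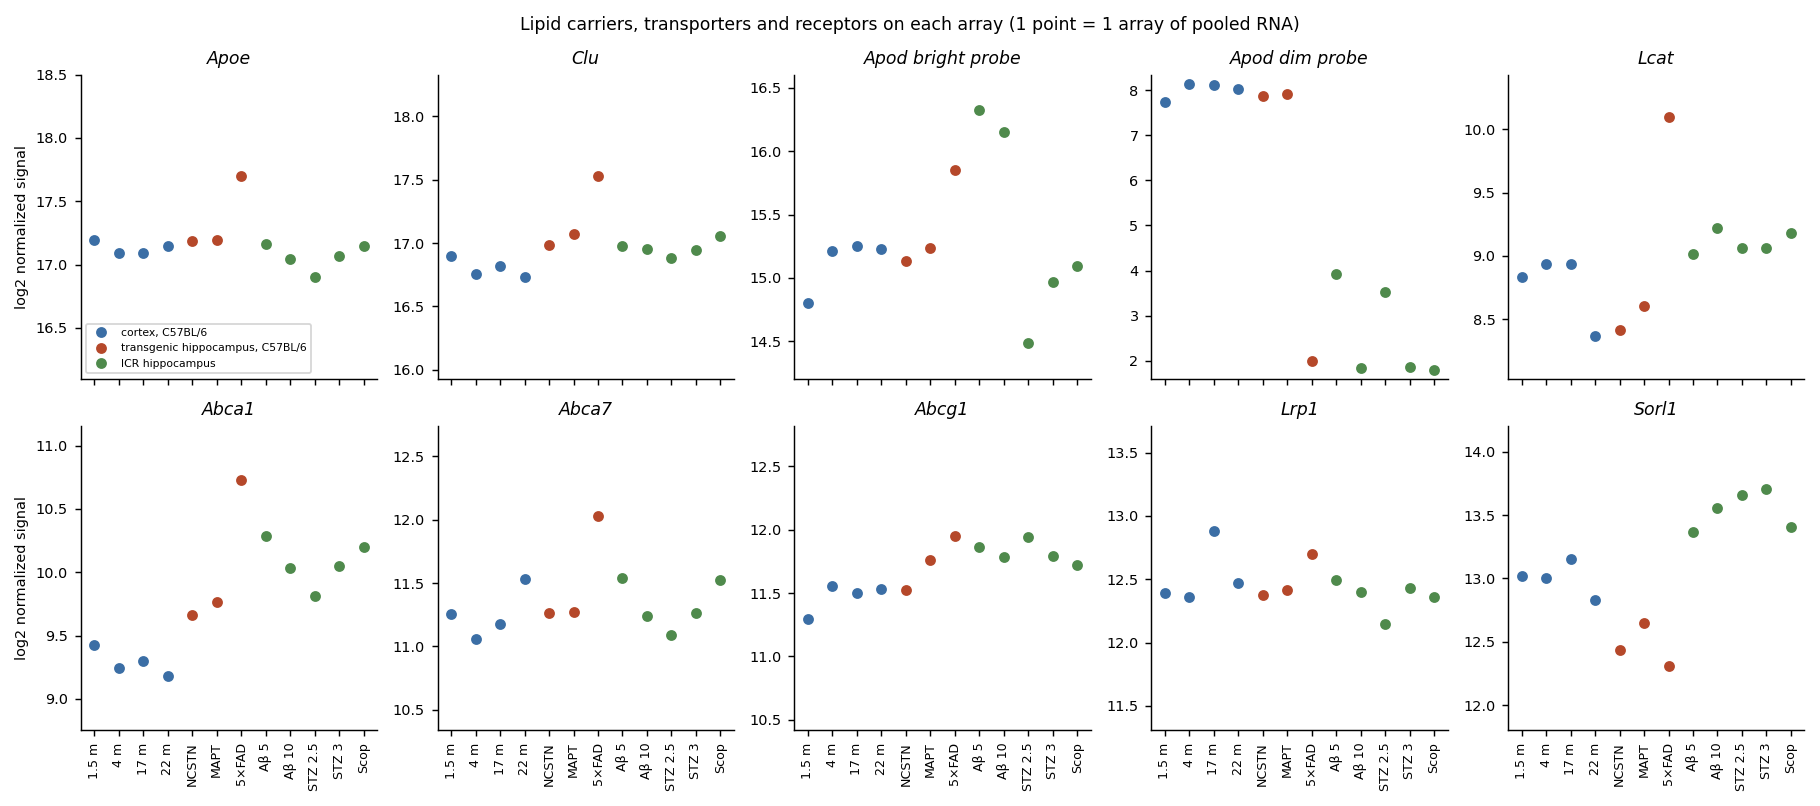
Level of each of the 10 probes (vertical axis, log2 normalized signal, with a range of its own in each panel) on each of the 12 arrays (horizontal axis; m, months; Aβ in μM; STZ, streptozotocin, and Scop, scopolamine, in mg/kg as given in the text). Each point is 1 array of RNA pooled from 3 mice, so there are no error bars. The 5×FAD point is the highest of all 12 for Apoe, Clu, Lcat, Abca1, Abca7, and Abcg1, and the lowest for Sorl1.

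The 5×FAD hippocampus stood apart from the NCSTN and MAPT hippocampus for most of these genes. With Apod read by its brighter probe, 8 of the 9 genes were higher on the 5×FAD array than on both other transgenic arrays, whereas 37.1% of all 19663 genes were. The shares of all genes average the probes of each gene. By that rule 7 of the 9 were higher, and Apod was lower, through a probe not well above background in 5×FAD. Sorl1 was lower on the 5×FAD array than on both others, as were 46.2% of all genes. The median difference of the 9 genes from the mean of the NCSTN and MAPT arrays was 0.51 (0.50 with the Apod probes averaged), against -0.05 for all genes. Lcat and Abca1 were at least 2-fold higher (Abca1 just under it on the log2 scale with normexp, at 0.92, with quantile normalization within sets, at 0.98, and with 75th percentile scaling, at 0.997), 2 of 9 genes where the share of all genes was 6.05%, and 4 of 9 were at least 1.5-fold higher, where the share of all genes was 13.3%. The 4 genes at 1.5-fold include Apod by its brighter probe. All of these are counts over single arrays, and no test between models was possible.

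**Figure D2:**
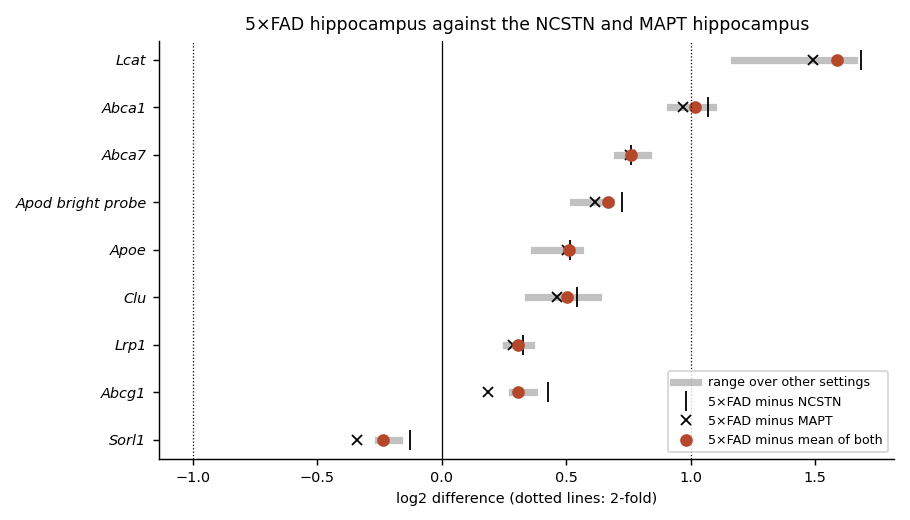
Difference in log2 signal (horizontal axis) between the 5×FAD array and the other transgenic arrays for each gene (vertical axis; Apod by its brighter probe). Circles are the difference from the mean of the NCSTN and MAPT arrays, ticks and crosses the difference from each, and grey bars the lowest to highest value of the circle over the other ways of processing the signal. Lcat lies at 1.59 and Sorl1 at -0.23, and every bar stays on the side of 0 of its circle.

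Among the carriers, Apoe encodes the main apolipoprotein of the brain, secreted mostly by astrocytes and also by microglia that surround plaques. Its level was 17.20, 17.09, 17.09, and 17.15 in the cortex at 1.5, 4, 17, and 22 months. In the transgenic hippocampus it was 17.19 with NCSTN, 17.20 with MAPT, and 17.70 in 5×FAD. The 5×FAD value lay 0.51 above the mean of the others (1.42-fold), and NCSTN and MAPT lay within 0.01 of each other. In the ICR hippocampus Apoe was 17.16 and 17.04 after Aβ at 5 and 10 μM, 16.90 and 17.07 after streptozotocin at 2.5 and 3 mg/kg, and 17.15 after scopolamine. These 5 values overlapped among treatments, and they spanned 0.26 on the log2 scale. The Apoe probe is printed in 10 spots, whose SD within an array was 0.0181 to 0.0513, an error of the spot that leaves out the spread between animals.

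Clu encodes clusterin, also called apolipoprotein J, a secreted chaperone that binds Aβ. Its level was 16.90, 16.75, 16.82, and 16.73 in the cortex from the youngest to the oldest mice. It was 16.99 with NCSTN, 17.07 with MAPT, and 17.53 in 5×FAD, 0.50 above the mean of the others (1.42-fold). In ICR mice it was 16.98 and 16.95 after Aβ, 16.89 and 16.94 after streptozotocin, and 17.06 after scopolamine, a narrow range in which scopolamine was highest. Apoe and Clu were among the brightest probes, at the 99.7 to 99.9 percentile of each array, where quantile normalization assigns values by rank. Before normalization the 5×FAD signal was 1.38 times the mean signal of the NCSTN and MAPT arrays for Apoe and 1.42 times for Clu.

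Apod encodes apolipoprotein D, a small lipocalin that carries arachidonic acid and other lipids and is made by oligodendrocytes, astrocytes, and the fibroblasts of the meninges and vessels. Its 2 probes did not show the same pattern, so they are given apart. On the brighter probe the level was 14.80 at 1.5 months and 15.22, 15.25, and 15.23 at 4, 17, and 22 months. It was 15.13 with NCSTN, 15.24 with MAPT, and 15.85 in 5×FAD, 0.67 above the mean of the others (1.59-fold). The youngest cortex was thus the lowest of its set, and 5×FAD was the highest of the transgenic set. In ICR mice it was 16.33 and 16.15 after Aβ, 14.48 and 14.97 after streptozotocin, and 15.10 after scopolamine. Both Aβ arrays were above all other arrays of the series, and the span within the ICR set was 3.59-fold, the widest of any member with its brighter probe in any set.

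The dimmer Apod probe was well above background on 6 arrays, the 4 cortex arrays and those of NCSTN and MAPT, where its level was between 7.73 and 8.14. On the 5×FAD array and on all ICR arrays it was not well above background. The level of this probe was 7.87 with NCSTN, 7.90 with MAPT, and 1.99 in 5×FAD. No fold is given, because the 5×FAD signal was not well above background. On the array of Aβ at 5 μM even a level of 3.92 was not. The brighter probe goes the other way on 5×FAD, and only the brighter probe is used for Apod below unless stated. By the brighter probe, 2 of the 9 genes, Lcat and Abca1, spanned 2-fold in the transgenic set, where 16.7% of all genes did. Averaging both probes would make Apod a further one, with 5×FAD lowest, but that rests on a probe that was not well above background there.

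Lcat encodes lecithin-cholesterol acyltransferase, which in brain is made mainly by astrocytes. Its level was 8.83, 8.94, 8.94, and 8.37 in the cortex, lowest at 22 months. It was 8.41 with NCSTN, 8.60 with MAPT, and 10.10 in 5×FAD. The 5×FAD value was 3.01-fold above the mean of the others, the largest difference of any member on that array. In the ICR hippocampus Lcat was 9.02 and 9.22 after Aβ, 9.06 and 9.06 after streptozotocin, and 9.18 after scopolamine. No treatment stood apart there, as the Aβ values lay on both sides of the streptozotocin values.

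Abca1 encodes the transporter that loads lipid onto newly secreted apolipoprotein E. Its level was 9.43, 9.24, 9.30, and 9.18 in the cortex, and 9.66 with NCSTN, 9.76 with MAPT, and 10.73 in 5×FAD. The 5×FAD value lay 1.02 above the mean of the others (2.03-fold), 1.07 above NCSTN and 0.97 above MAPT. In ICR mice Abca1 was 10.29 and 10.03 after Aβ, 9.81 and 10.05 after streptozotocin, and 10.20 after scopolamine. The values after Aβ and streptozotocin overlapped. Abca1 is a known target of liver X receptors, nuclear receptors that bind sterols and act with the retinoid X receptor on a pair of sites of the AGGTCA type spaced by 4 bases. The 250 bases before its annotated start are shown because, of the 7 members with a promoter window, only Abca1 held such a pair in a relaxed form. They are from RefSeq, build GRCm38.p6, chr4:53159896-53160145, minus strand, written 5′ to 3′ with the matching site in capitals:
Abca1: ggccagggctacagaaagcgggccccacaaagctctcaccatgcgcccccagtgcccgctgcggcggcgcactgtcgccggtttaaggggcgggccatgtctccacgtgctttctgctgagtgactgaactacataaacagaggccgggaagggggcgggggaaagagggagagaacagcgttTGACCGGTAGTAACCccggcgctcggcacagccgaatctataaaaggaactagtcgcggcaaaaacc
The site covers bases 67 to 53 before the start, and its reverse complement is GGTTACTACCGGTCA. The relaxed form searched was GGTNA and GGTCA with 5 bases of any kind between them, on both strands. It was chosen with the type of this element in mind, so the match in Abca1 is no test. Of 32851 promoter windows of mouse genes, 0.207% held it. The strict form, AGGTCA repeated after 4 bases of any kind, was in none of the 10 windows of the 7 members that the table covers and in 0.0152% of all windows. Clu and Abcg1 were not among those members. A match of letters is a description of the window and not evidence that a factor binds there.

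Abca7 encodes a transporter related to Abca1 that acts in microglia and neurons, in phagocytosis and lipid transport. Its level was 11.26, 11.06, 11.18, and 11.54 in the cortex, highest at 22 months. It was 11.27 with both NCSTN and MAPT and 12.03 in 5×FAD, 0.76 above the others (1.69-fold). In ICR mice it was 11.54 and 11.24 after Aβ, 11.09 and 11.26 after streptozotocin, and 11.53 after scopolamine, so that the treatments overlapped. Abcg1, which exports cholesterol to particles that already carry lipid, varied less. Its level was 11.29, 11.56, 11.50, and 11.54 in the cortex, 11.52 with NCSTN, 11.77 with MAPT, and 11.95 in 5×FAD. In ICR mice it was 11.87 and 11.79 after Aβ, 11.94 and 11.80 after streptozotocin, and 11.72 after scopolamine. The 5×FAD array was only 0.18 above MAPT for Abcg1, less than the distance of 0.24 between NCSTN and MAPT.

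Lrp1 encodes a large endocytic receptor of apolipoprotein E and Aβ. Its level was 12.39, 12.36, 12.88, and 12.47 in the cortex, highest at 17 months. It was 12.37 with NCSTN, 12.41 with MAPT, and 12.70 in 5×FAD, 0.31 above the others (1.24-fold). In ICR mice it was 12.50 and 12.40 after Aβ, 12.15 and 12.43 after streptozotocin, and 12.36 after scopolamine. Only the lower streptozotocin dose stood apart there, as the lowest array.

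Sorl1 encodes a neuronal sorting receptor that returns the amyloid precursor protein from endosomes to the Golgi. It was the member that went against the others. Its level was 13.02, 13.00, 13.15, and 12.83 in the cortex. It was 12.43 with NCSTN, 12.65 with MAPT, and 12.31 in 5×FAD, the lowest value of all 12 arrays. The difference of -0.23 between 5×FAD and the mean of the others was close to the difference of -0.21 between NCSTN and MAPT. In ICR mice Sorl1 was 13.37 and 13.55 after Aβ, 13.66 and 13.71 after streptozotocin, and 13.40 after scopolamine, with both streptozotocin arrays above the other 3.

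Some lists of cell and tissue markers also differed on the 5×FAD array. Of 8 microglial markers, 5 were at least 2-fold higher on the 5×FAD array than on the mean of NCSTN and MAPT, with a median difference of 1.34. The log2 of their summed signal was 16.44 in 5×FAD, against 14.59 with NCSTN and 14.54 with MAPT, and all 8 were well above background on each array. Of 8 astrocyte markers, 2 were at least 2-fold higher (median 0.33), and the log2 of their sum was 18.15 in 5×FAD, against 17.82 and 17.83. Of 7 oligodendrocyte markers none was at least 2-fold higher (median 0.45), as of 8 choroid plexus markers (median 0.64). Of 9 fibroblast markers, 2 were (median 0.47), and the 6 cortex markers had a median of -0.53. The median was -0.46 for 5 hippocampus markers, -0.17 for 6 neuronal, -0.08 for 5 ependymal, and -0.10 for 3 red blood cell markers. Of 6 endothelial markers, 1 was at least 2-fold lower (median -0.18), as were 4.69% of all genes. The part of these cell types in the lipid genes was not tested. Thy1, whose promoter drives the 5×FAD transgenes, was at 17.41 in 5×FAD and at 16.56 and 16.58 with NCSTN and MAPT.

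Other genes of lipid transport were read from 5 lists. Of 21 other lipoprotein and sorting receptors, 3 were at least 2-fold higher on the 5×FAD array and 1 was lower, with a median of 0.15, where the shares of all genes were 6.05% higher and 4.69% lower. Of 12 other lipid transporters, none was past 2-fold in either direction (median 0.21). Among 14 lipases, esterases, and transfer proteins, 4 were higher and 1 was lower (median 0.26), and among 15 regulators 1 was higher and 1 lower (median -0.07). Of 14 measured other apolipoproteins, 1 was higher and 1 was lower (median -0.04). The largest difference among those well above background on all 3 arrays was that of Trem2, a microglial receptor that binds lipid and apolipoprotein E, at 14.90 in 5×FAD against a mean of 11.66 (9.48-fold). Pon3, a lactonase carried on lipoproteins, was 4.00-fold higher and Lpl, lipoprotein lipase, was 2.73-fold higher. Soat2, which esterifies cholesterol inside cells, was 2.63-fold higher at a low level of 5.42. Srebf2, the regulator of cholesterol synthesis, was read by 2 probes that disagreed, at 3.14 and -0.79. Apoc4 was well above background on the 5×FAD array alone of all 12. On the NCSTN array Apoc3, an inhibitor of lipoprotein lipase, was 2.61-fold higher than on the other transgenic arrays.

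In the ageing cortex the question was whether any of these genes changed with age. None of the 9 spanned 2-fold over the 4 ages, where 14.3% of all genes did. Slopes on age were fitted for all genes with limma, taking the 4 arrays as samples of 1 line. None of the 9 passed the test, with adjusted p of 0.99 or more for each, and none of all 19663 genes did (0% called), while 910 genes were under an unadjusted p of 0.05. The slope of Apod, with its brighter probe, was 0.015 per month (95% interval -0.012 to 0.041). The slope of Lcat was -0.018 (-0.053 to 0.018), and that of Apoe was -0.0013 (-0.021 to 0.018). The intervals are wide, so slopes of this size were not detectable with 4 arrays. Lrp1 and the brighter Apod probe were higher on both arrays of old mice than on both arrays of young mice, by 0.30 and 0.23 on average, as were 20.1% of all genes. Without the 17-month array the Lrp1 difference was 0.10, and without the 1.5-month array that of Apod was 0.02.

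Markers of other cells and tissues also differed between the cortex arrays. At 17 months, where Lrp1 was highest, all 8 choroid plexus markers exceeded the mean of the other cortex arrays by 2-fold or more (median 3.39). Of all genes, 2.34% did. The log2 of the summed signal of the 8 markers was 15.62, against 7.64 to 8.66 at the other ages. The median of the 9 fibroblast markers was 0.66 at 17 months and 0.43 at 1.5 months, and -0.41 and -0.45 at 4 and 22 months. Oligodendrocyte markers had medians of 0.78 and 0.28 at 4 and 22 months and of -0.52 and -0.60 at 1.5 and 17 months. Their part in the levels of the 9 genes was not tested.

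In the ICR hippocampus the question was whether Aβ and streptozotocin differed, with the 2 doses of each taken as its samples. Doses are not replicates, and the test treats their difference as spread. With the Apod probes averaged or with the brighter alone, Apod, 1 of the 9 genes, spanned 2-fold within the set, where 21% of all genes did. It was the only member at least 2-fold higher on the array of Aβ at 5 μM than on the other ICR arrays (3.83% of all genes), and by its brighter probe the only one at least 2-fold lower after streptozotocin at 2.5 mg/kg (4.85%). limma called none of the 9 genes and 1 of 19663 genes (0.00509%), with 2528 genes under an unadjusted p of 0.05. Apod differed by 0.85 (SE 0.49, adjusted p = 0.554 by limma) with both probes averaged, and by 0.29 without the array of Aβ at 5 μM, but these values mix in the dimmer probe, which was not well above background on any ICR array. With the brighter probe alone it was 1.51 higher after Aβ than after streptozotocin, or 2.85-fold (SE 0.20, 95% interval 0.91 to 2.11, adjusted p = 0.169 by limma). The call depended on the processing, since the adjusted p of the brighter probe was 0.038 with scaling to the 75th percentile, 0.036 with normexp, and 0.0010 in the deposited matrix. Against scopolamine, the mean of the Aβ arrays was 1.14 higher.

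**Figure D3:**
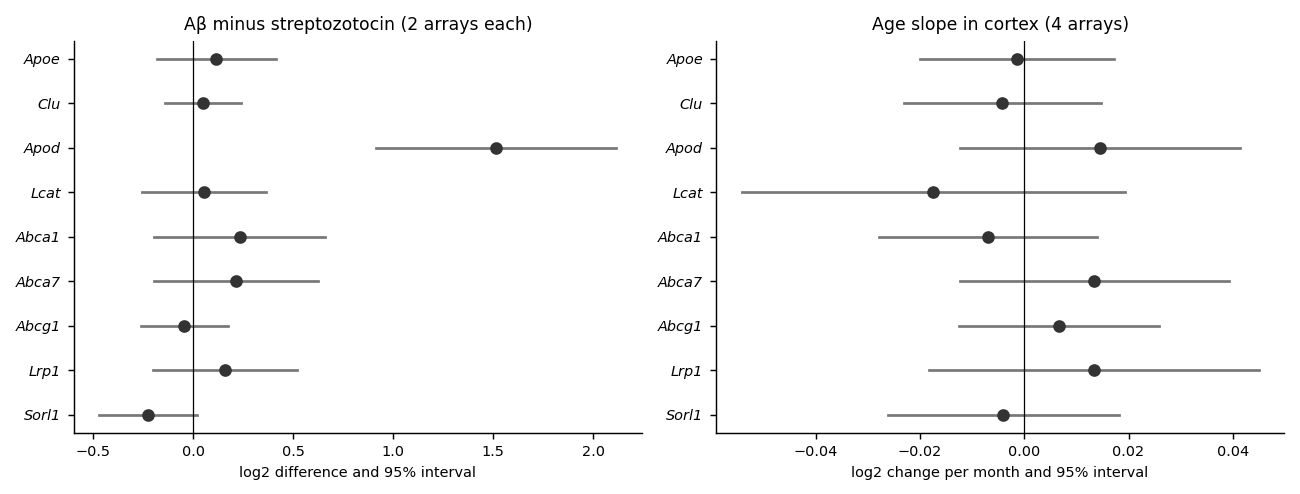
Points are limma estimates for the 9 genes with the brightest probe of each gene, and lines are 95% intervals. The left panel shows the log2 difference of Aβ minus streptozotocin over 2 arrays each, and the right panel the log2 change per month of age over 4 cortex arrays. On the left the interval of Apod, 0.91 to 2.11, lies above 0 and those of the other 8 genes include 0. On the right all 9 intervals include 0.

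For the other members the differences between Aβ and streptozotocin were small. That of Sorl1 was -0.22 (95% interval -0.47 to 0.023, adjusted p = 0.421 by limma), and both of its Aβ arrays were below both streptozotocin arrays, as for 27.7% of all genes. Clu, like Apod, had both Aβ arrays above both streptozotocin arrays, as did 19.6% of all genes, but its difference was 0.05 (-0.16 to 0.26). Abca1 differed by 0.23 (-0.19 to 0.65) and Abca7 by 0.21 (-0.19 to 0.62). None of the genes in the 5 lists of other lipid genes was called. Lipa, the lysosomal acid lipase, was at 8.55 after Aβ at 5 μM against a mean of 9.72 on the other ICR arrays. Pon3 was lower after both streptozotocin doses than on the mean of the other ICR arrays, with log2 differences of -1.20 and -1.02. Apoc1, an apolipoprotein of the same gene cluster as Apoe, was at 10.22 after the lower streptozotocin dose against a mean of 11.39. Each dose was 1 array, so an effect of dose cannot be told apart from the spread between arrays. Between the Aβ doses the largest difference of a member was that of Abca7, -0.30 from 5 to 10 μM. Between the streptozotocin doses it was that of Apod, 0.48 from 2.5 to 3 mg/kg.

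Markers of tissue around the hippocampus also differed between the arrays of this set. Of 9 markers of meningeal and perivascular fibroblasts, all 9 exceeded the mean of the other ICR arrays by 2-fold or more after Aβ at 5 μM. After 10 μM, 8 of 9 did. The shares of all genes were 3.83% and 3.82%. All 9 were below that mean by 2-fold or more after streptozotocin at 2.5 mg/kg, as were 4.85% of all genes. The log2 of the summed signal of the 9 markers was 16.11 and 15.64 after Aβ, 12.59 and 14.47 after streptozotocin, and 14.60 after scopolamine. For 8 choroid plexus markers the log2 sum was 17.51 and 17.58 after Aβ, 11.70 and 12.39 after streptozotocin, and 17.52 after scopolamine. Other lists also differed between Aβ and streptozotocin, with no gene past the adjusted threshold of limma. An unadjusted p under 0.05 by limma, in either direction, was reached by 12.9% of all genes. At that threshold, all 5 ependymal markers (median difference 1.27) and 5 of 6 endothelial markers (0.42) were higher after Aβ. Lower after Aβ were 6 of 8 microglial markers (-0.33), 4 of 6 cortex markers (-0.54), and 2 of 6 neuronal markers (-0.18). None of 7 oligodendrocyte (-0.03), 8 astrocyte (-0.03), 5 hippocampus (0.17), or 3 red blood cell markers (0.14) reached that threshold. The part of any of these in the Apod difference was not tested.

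**Figure D4:**
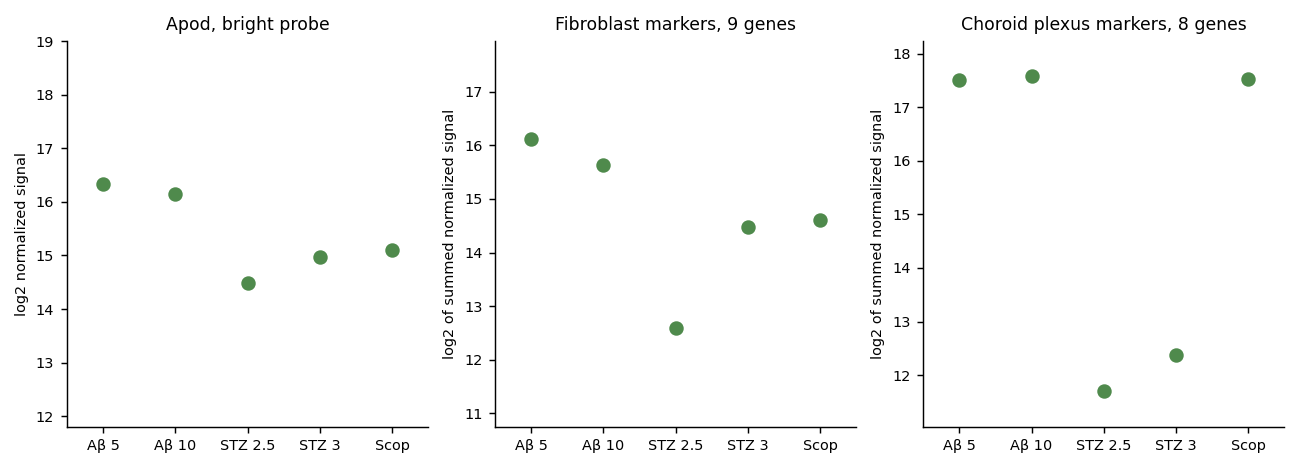
Log2 signal of the brighter Apod probe and log2 of the summed signal of 9 fibroblast markers and 8 choroid plexus markers (vertical axes, all of equal span) on the 5 ICR arrays (horizontal axis; Aβ in μM, STZ and Scop in mg/kg). Each point is 1 array. Apod and the fibroblast sum are highest after Aβ. Apod and both sums are lowest after streptozotocin at 2.5 mg/kg. The choroid plexus sum is 17.51 and 17.58 after Aβ and 17.52 after scopolamine.

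Between sets, region, strain, age, sex, and treatment differ together and cannot be told apart. Abca1 was higher on all 8 hippocampus arrays, at 9.66 or more, than on all 4 cortex arrays, at 9.43 or less, as was the case for 8% of all genes. Clu and Abca1 were higher on all transgenic arrays than on all cortex arrays (13% of all genes), and Sorl1 was lower (18.6%). Sorl1 was also higher on all ICR arrays than on all transgenic arrays (13.6%), and Apoe was lower on all ICR arrays (8.98%). The gap for Apoe was small, from 17.16 on the highest ICR array to 17.19 on the lowest transgenic array. The SD between its spots within an array was 0.0181 to 0.0513. The levels of Apoe, Abcg1, Lrp1, Abca7, Lcat, and Apod overlapped between the cortex and the transgenic hippocampus.

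Genes with the profile most like that of Abca1 and Lcat were sought among 14026 genes well above background on all 12 arrays, after each set was centred on its mean. The points share their libraries, and r is a description. The gene most like Abca1 was Apoe (Pearson's r = 0.98 over 12 arrays and 0.90 over the 11 arrays without 5×FAD), followed by Golgb1 and Nfe2l2 (0.98 and 0.97). For Lcat they were Bend3, Ifi204, and Rnase4 (0.97, 0.95, and 0.95). Without the 5×FAD array these became 0.87, 0.58, and 0.52, so the likeness of Ifi204 and Rnase4 to Lcat rested largely on that array. For the brighter Apod probe they were Serpina1e, Cyp1b1, and C1qtnf1 (0.98, 0.96, and 0.95), and without 5×FAD the values were 0.98, 0.95, and 0.96.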

How the data were processed

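The authors deposited the spot intensities of each array as the Agilent scanner software gave them, background-subtracted but not normalized between arrays, with foreground and background medians and flags. A matrix of processed intensities was deposited too, described in the methods as filtered at 1.4-fold of the local background and quantile normalized. Its columns do not share 1 distribution, so it was used only as an alternative. The build behind the probes is not given in the sources used here.

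Spots marked as outliers, 110 to 234 on each array, were dropped, and the spots of a probe were averaged on the log2 scale. Probes at least 1.4-fold above local background on all 12 arrays were kept (36573 of 39429) and quantile normalized together. Accessions named 69.8% of the probes through RefSeq for GRCm38.p6, and probes of a gene were averaged, which left 19663 genes. All 9 members are named, with the 3 genes most like each member spanning 2-fold in a set, and at most 4 list genes per array that were past 2-fold and well above background on the set. Srebf2, Apoc4, and Thy1 were singled out with their values known. A few genes meeting this rule are not reported here. The members and lists were chosen with earlier results of these data known.

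limma tests, two-sided (version 3.58.1, R 4.3.3, Python 3.11.15) were fitted over all genes with Benjamini-Hochberg adjustment at 0.05. On simulated arrays with 200 of 19663 genes changed by a log2 difference of 1, none passed the adjusted threshold in either test. At a difference of 3, 63% were recovered for the age trend and 73% for Aβ minus streptozotocin. The alternatives were 75th percentile scaling, normexp (offset 50, on foreground and background medians), no filter, probes well above background on all arrays, the deposited matrix, quantile normalization within sets, the brightest probe, a 1.5-fold threshold, other forms of age, and each array left out. The brightest probe combined with another source of values was added after the data had been seen, as were the counts of groups that do not overlap, the likeness of the brighter Apod probe, and the old minus young differences with each cortex array left out.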

Additional observations from a re-analysis of the deposited data

Results flagged for a closer look

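The brighter Apod probe in the cortex at 1.5 months, at a log2 signal of 14.80, lay far from the other 3 cortex arrays, which were between 15.22 and 15.25. It was the only 1 of 20 sets of arrays examined in which the lowest or the highest array lay so far out, and chance gives about 1 such array in 20 sets.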

How the results depend on the processing

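The count of members past 2-fold and the Apod call were the results that depended most on the processing. With both Apod probes averaged, members spanning 2-fold in the transgenic set numbered 3, but 2 with the brightest probe, 1 with normexp, 1 with normexp and the brightest probe, and 0 to 3 with each array left out (0 without 5×FAD). In the ICR set the number was 1, but 0 with normexp and 0 in the deposited matrix, and 0 to 1 with each array left out (0 without Aβ at 5 μM). These ICR counts average both Apod probes. By the brighter probe alone Apod spanned 3.59-fold in the ICR set. Without Aβ at 5 μM its highest and lowest levels there were 16.15 and 14.48. Members past 2-fold on 1 array against the others of its set gave 6 pairs of gene and array, but 1 with normexp, 2 with the brightest probe and 75th percentile scaling, 3 with the brightest probe and normexp, 11 at 1.5-fold, and 1 to 7 with each array left out (1 without 5×FAD). For Aβ minus streptozotocin, 1 member (Apod) was called with normexp, with probes well above background only, and in the matrix, and 1 with the brightest probe combined with 75th percentile scaling, normexp, or the matrix. All genes called numbered 1, but 258 with 75th percentile scaling, 203 with normexp, 187 with probes well above background only, 305 in the matrix, and 0 without any 1 of the 4 arrays. With both probes averaged, the Apod difference was between 0.29 and 1.41 with each of these arrays left out. That range mixes in the dimmer probe, which was not well above background on any ICR array. On the brighter probe the levels were 16.33 and 16.15 after Aβ and 14.48 and 14.97 after streptozotocin. The cause of the changes in the counts was not tested.

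Apod against its set turned sign once its dimmer probe was left out. It became -0.42 for NCSTN, -0.25 for MAPT, and 0.67 for 5×FAD, both with the brightest probe and with probes well above background only. With the brightest probe the values were -0.29, -0.24, and 0.53 under 75th percentile scaling, -0.38, -0.30, and 0.68 with normexp, and -0.36, -0.20, and 0.55 in the matrix. With a transgenic array left out, the NCSTN value of Apod was between -0.070 (without 5×FAD) and 2.58, the latter set by the dimmer probe, for which 5×FAD gave no signal well above background. Age slopes turned sign at small sizes. With 75th percentile scaling, alone or with the brightest probe, that of Apoe became 0.0059 and that of Clu 0.0061. With each age left out, slopes were between -0.0044 and 0.0023 for Apoe, -0.0025 and 0.020 for Apod, and -0.0017 and 0.012 for Abcg1, with the sign turned without 1.5 months. They were between -0.026 and 0.0045 for Lcat, -0.00048 and 0.023 for Abca7, and -0.0096 and 0.0097 for Sorl1, with the sign turned without 22 months. For Aβ minus streptozotocin, Apoe became -0.031 and Clu -0.078 with 75th percentile scaling, and Lcat -0.21 in the matrix. With each array left out, Lcat was between -0.044 (without Aβ at 10 μM) and 0.16, and Abcg1 between -0.12 and 0.029 (without streptozotocin at 2.5 mg/kg). In the matrix the median of all genes lay at -0.14 for Aβ at 10 μM, 0.24 for streptozotocin at 2.5 mg/kg, and -0.22 for scopolamine.

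Slide or scan as a block was not run, since the files used here name neither. No paired analysis was possible because each model has 1 array. With 1 array of pooled RNA per model, the number of arrays limits the precision.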

Other observations

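The pattern of the dimmer Apod probe, well above background on the 4 cortex, NCSTN, and MAPT arrays and on none of the other 6, was shared by 12 probes in all, of which 7 named genes were read, and 2 of those genes had another probe that was well above background on all 12 arrays. The opposite pattern was held by 10 probes. These counts are among 39429 probes, of which 23338 were well above background on all 12 arrays.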
